A study of Pan paniscus with 11 samples.

Results

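Immediate early genes are switched on within minutes of a growth stimulus, without new protein synthesis, and many of their products are transcription factors or feedback inhibitors of the signals that induced them. A panel of 35 immediate early and serum response genes was followed in cultured fibroblasts of the bonobo (Pan paniscus). The panel was defined by gene name, and all probe sets carrying exactly 1 symbol from the panel were taken. Of the 35 genes, 34 were found, among 8226 genes on the array, and they were measured by 56 probe sets. EGR2 had no such probe set.

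RNA was profiled on 1 array per culture, with 11 arrays in all. The donors of female lines 1 to 5 were 9, 2, 4, 20 and 20 years old, and the donors of male lines 1 to 5 were 4, 2, 12, 17 and 19 years old. These 10 lines, each from a different animal labelled normal, were cultured under what the labels call standard conditions. A further culture of male line 1 was taken at 50% confluence. Lines were numbered within each sex in accession order, so a number shared by a female and a male line pairs nothing. Under standard conditions each line has 1 culture, so that the spread between lines mixes biological and technical differences. The confluence of the standard cultures, their passage number and the time since serum or medium was last changed are not given in the sources used here.

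In fibroblasts, serum and growth factors act through receptor tyrosine kinases, RAS and the MAP kinase cascade on ternary complex factors such as ELK1, which sit beside the serum response factor SRF at the promoters of FOS, EGR1 and related genes. FOS and JUN proteins pair to form the AP-1 transcription factor. Products such as the dual specificity phosphatases, which remove phosphate from MAP kinases, and ZFP36, which speeds the decay of AU-rich mRNAs, end the response again. The panel also holds ID genes, which are induced by BMP signals and by serum, and NF-kB feedback genes.

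Low intensities end at a floor: the lowest deposited value was 100 in 9 arrays and 90 in male line 5 and the 50% confluence culture. All values under 100 were set to 100 here, so a value of 100 is an upper bound. Of 9 fibroblast marker genes on the array, 9 were above 100 in all 11 cultures, including VIM and COL1A2. Of 6 endothelial markers, 0 were above it in all 11, as were 0 of 4 melanocyte markers, 1 of 8 keratinocyte and epithelial markers (KRT10) and 2 of 5 blood cell markers (CD3E and CD68). PTPRC, EPCAM and CDH5 were each above the floor in 1 culture. Other markers of these cell types were above it more often: KRT1 in 10 cultures, DSP and HBB in 9 each, and MLANA and TYR in 6 each. The 18S ribosomal RNA controls gave 1508 to 2611 on the array of the 50% confluence culture, against 100 to 313 in the standard lines. The ACTB 3′ to 5′ signal ratio was 0.669 in the 50% confluence culture and 0.853 to 2.27 in the standard lines, with the highest ratio in male line 4. The part of these differences in the results on the panel was not tested.

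Of the 34 genes, 22 were above the floor in all 11 cultures. ATF3, NR4A2 and ID2 were at the floor in every culture; a further probe set that carries the ID2 symbol together with another gene was not used. DUSP2 and NR4A3 were above it in 4 of the 11 cultures and were not tested. The other 29 genes, above 100 in at least 5 cultures, entered the tests, and 7 of those were at the floor in at least 1 culture. A gene with more than 1 probe set was represented by the tested one of highest mean log2 intensity. The probes follow human sequences, so intensities of different genes are not set against each other here.

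**Figure D1:**
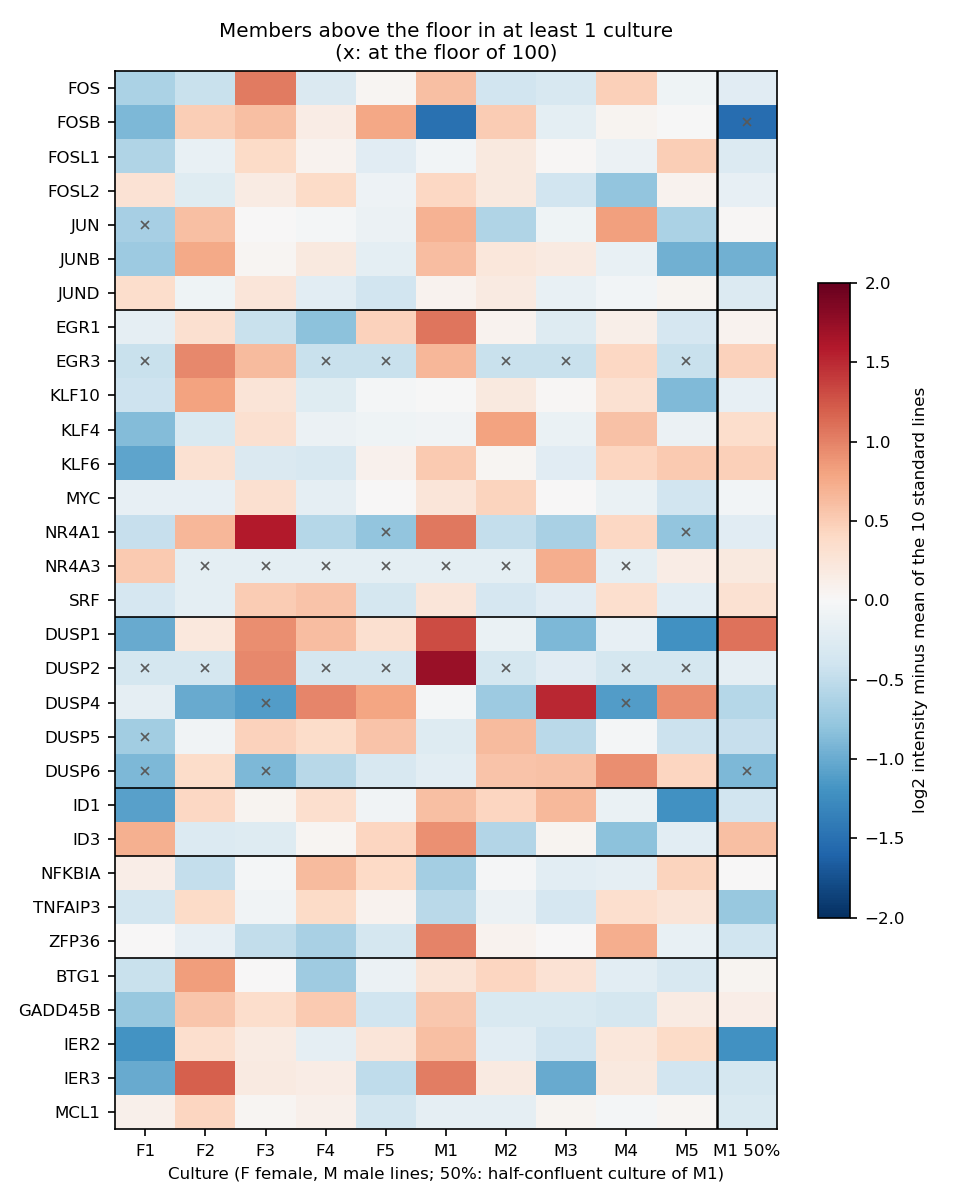
Log2 intensity of the 31 panel genes above the floor in at least 1 culture, minus each gene's mean over the 10 standard lines (colour, from -2 to 2); columns are cultures, rows are genes grouped by role, and crosses mark values at the floor of 100. The column of female line 1 is mostly blue, and the column of male line 1 is mostly red beside the paler or blue column of its 50% confluence culture.

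The AP-1 genes were described first. FOS, the founding member, read 109, 124, 347, 139 and 174 in female lines 1 to 5 and 257, 130, 135, 235 and 160 in male lines 1 to 5, and 144 at 50% confluence. Its other probe sets were above the floor in 1 culture each, so FOS lay close to the detection limit throughout. FOSB, a close relative of FOS, read 155, 405, 436, 320 and 493 in the female lines and 102, 412, 252, 301 and 288 in the male lines. Its lowest standard line was male line 1, the line in which FOS was second highest, and at 50% confluence FOSB was at the floor. JUNB, a JUN family member that often restrains JUN, read 347, 974, 592, 660 and 499 in female lines and 878, 670, 653, 515 and 296 in male lines. Female line 2 and male line 1 were the highest for JUNB. A second JUNB probe set was at the floor in male line 4, where the first read 515. JUN ranged from 100 to 282 over the standard lines. FOSL1 and FOSL2, FOS relatives of longer-lasting expression, ranged from 334 to 718 and from 624 to 1424. JUND, the JUN family member that is present in resting cells, spanned 4442 to 7428, an SD of 0.22 log2 over the 10 lines.

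Among the other transcription factors, EGR1, a zinc finger factor and a standard readout of ERK activity, read 331, 467, 273, 211 and 514 in female lines and 785, 392, 314, 407 and 295 in male lines. Male line 1 stood above all others. EGR3, its relative, was above the floor in 4 of the 10 standard lines, with 264 in female line 2, 210 in female line 3, 215 in male line 1 and 181 in male line 4, and read 188 at 50% confluence. NR4A1, an orphan nuclear receptor, read 126, 273, 520, 117 and 100 in female lines and 360, 124, 110, 231 and 100 in male lines. The 4 lines in which NR4A1 exceeded 200 were the same 4 in which EGR3 was above the floor. That match was noticed after the values were seen, and both genes lie near the floor. It also rests on 1 NR4A1 probe set: the second tested one exceeded 200 in female line 3 (303) and male line 1 (220) alone. KLF4, a zinc finger factor of the Krüppel-like family, read 112, 165, 253, 188 and 191 in female lines and 194, 356, 185, 307 and 187 in male lines. Its relative KLF6 read 791, 2024, 1347, 1323 and 1745 in female lines and 2356, 1685, 1402, 2229 and 2366 in male lines. Female line 1 was lowest for both. KLF10, a TGF-beta-inducible family member, ranged from 456 to 1466. MYC, the growth-promoting bHLH factor, spanned 674 to 1191 by its strongest probe set. SRF read 1323, 1454, 2356, 2463 and 1309 in female lines and 1965, 1314, 1424, 2094 and 1438 in male lines, less than a 2-fold span (1.88).

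The 4 feedback phosphatase genes tested had a median SD of 0.75 log2 over the 10 lines, and of 0.46 with a floor of 200. DUSP1, whose product inactivates nuclear MAP kinases including p38 and JNK, read 626, 1451, 2390, 1928 and 1568 in female lines and 3095, 1148, 676, 1121 and 544 in male lines, a 5.69-fold span. DUSP4, a nuclear ERK phosphatase, read 191, 108, 100, 428 and 376 in female lines and 211, 131, 620, 100 and 415 in male lines, and 147 at 50% confluence. Male line 3 was highest for DUSP4 and among the 3 lowest for DUSP1. DUSP6, the cytoplasmic ERK phosphatase, read 100, 239, 100, 126 and 149 in female lines and 160, 275, 278, 354 and 250 in male lines. DUSP5 ranged from 100 to 250. DUSP2 was above the floor in 3 standard lines, at 421 in male line 1, 248 in female line 3 and 109 in male line 3.

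ID1, which encodes an inhibitor of bHLH factors, read 5491, 15408, 12054, 14652 and 11000 in female lines and 17668, 15647, 18201, 10631 and 4995 in male lines. Female line 1 and male line 5 stood below the other 8 lines. ID3 did not follow this order: it ranged from 2676 to 8903, and female line 1, with 7754, was second highest. Of the NF-kB feedback genes, NFKBIA, which encodes the inhibitor IkB-alpha, read 491, 323, 437, 693 and 591 in female lines and 278, 440, 387, 395 and 607 in male lines, and TNFAIP3, the gene of the ubiquitin-editing enzyme A20, ranged from 141 to 268. Male line 1 was the lowest line for both.

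ZFP36 read 1286, 1140, 905, 816 and 1000 in female lines and 2544, 1337, 1278, 2101 and 1149 in male lines. Male lines 1 and 4 were set off from the rest. IER2, a nuclear protein gene induced by serum, read 725, 2092, 1860, 1458 and 1960 in female lines and 2510, 1431, 1271, 1933 and 2162 in male lines. IER3, linked to survival under stress, read 348, 1593, 789, 776 and 489 in female lines and 1418, 791, 346, 802 and 535 in male lines. Female line 1 was the lowest or second lowest line for both. BTG1, an antiproliferative gene, read 745, 1802, 1022, 617 and 938 in female lines and 1210, 1366, 1238, 875 and 809 in male lines, and 1056 at 50% confluence. MCL1, a BCL2-family survival gene, spanned 800 to 1382, and GADD45B, a stress sensor gene, 545 to 1359.

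Spread between lines was described over the 29 tested genes, with no test. The median SD was 0.51 log2, against 0.43 over all 5370 tested genes, and 15 of 29 genes (51.7%) had an SD over 0.5, against 33.2% of all tested genes. The largest SDs were those of DUSP4 (0.99), NR4A1 (0.86), DUSP1 (0.84), IER3 (0.75), FOSB (0.71), ID1 (0.66), DUSP6 (0.66) and EGR3 (0.59). Among the smallest were those of MCL1 (0.21) and JUND (0.22), with 0.23 in the other MCL1 probe set and 0.25 and 0.33 in the other JUND probe sets. The strongest MYC probe set had 0.26, but the other 3 had 0.55, 0.63 and 0.56. The SDs of genes near the floor depended on it. With a floor of 200, they were 0.63 for DUSP4, 0.48 for NR4A1, 0.46 for FOSB, 0.29 for DUSP6 and 0.13 for EGR3, whereas those of DUSP1, IER3 and ID1 did not move.

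**Figure D2:**
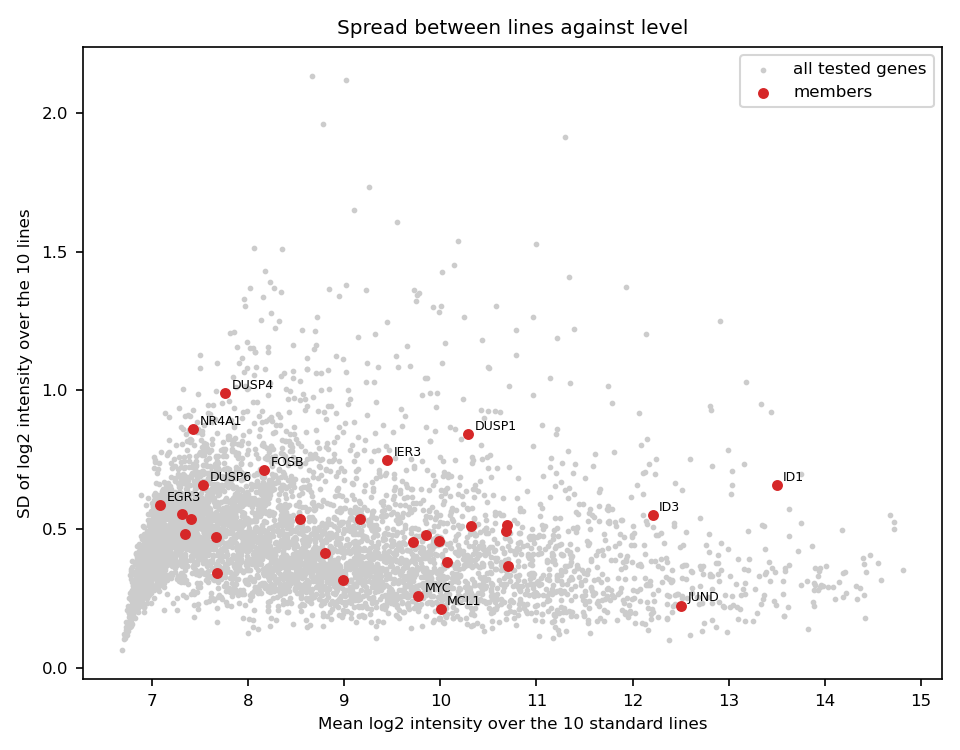
SD of log2 intensity over the 10 standard lines (vertical axis) against mean log2 intensity over the same lines (horizontal axis); grey points are all 5370 tested genes and red points the 29 panel genes tested, 12 of them named. DUSP4, NR4A1 and DUSP1 lie high, and JUND, MCL1 and the strongest MYC probe set lie low.

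The genes did not spread evenly over the lines. Female line 2 was the highest of the 10 standard lines for 7 of 29 genes (24.1%), against 7.93% of all tested genes. These were JUNB, EGR3, IER3, KLF10, MCL1, BTG1 and GADD45B. By their other probe sets, JUNB was highest in male line 1 (637, with 606 in female line 2) and GADD45B in female line 3 (554, with 512 in female line 2). Male line 1 was the highest for 6 (20.7%), against 7.26%; these were FOSL2, EGR1, IER2, DUSP1, ZFP36 and ID3. Female line 1 was the lowest for 8 (27.6%), against 12.6%; these were FOS, FOSL1, JUN, IER2, DUSP5, KLF4, KLF6 and GADD45B. The median panel gene lay 0.46 log2 below its 10-line mean in female line 1 (-0.46), where the median of all tested genes was -0.08. It lay 0.41 above in male line 1 and 0.32 above in female line 2, where the medians of all tested genes were 0.00 in both. These lines were singled out after the values had been seen, and the difference between lines has no replicate culture to test it.

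Within that pattern, pairs of genes with a shared input were compared across the 10 lines. Of 12 pairs listed, 10 could be computed, since ATF3 and ID2 were at the floor. By permutation test (100000 resamples, two-sided, Benjamini-Hochberg over the 10 pairs), 0 correlations passed, and 0 had an unadjusted p under 0.05. EGR1 with IER2 had a Pearson r of 0.45 (permutation p = 0.192, adjusted p = 0.706) and a Spearman rho of 0.47 (permutation p = 0.180, adjusted p = 0.901). Without female line 4 and male line 1, the lines farthest from the EGR1 median, r was 0.26. FOS with EGR1, both SRF targets, had an r of 0.21 (permutation p = 0.564) and a rho of 0.05 (permutation p = 0.891), and FOS with FOSB an r of -0.02 (permutation p = 0.970) and a rho of 0.15 (permutation p = 0.681). The lowest p was that of MYC with MCL1, with a rho of -0.64 (permutation p = 0.0522, adjusted p = 0.522) and an r of -0.45 (permutation p = 0.191). It rests on the strongest MYC probe set, from which the other MYC probe sets differed in spread.

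The 50% confluence culture was then set against the standard culture of the same line, the comparison that the labels name. Most panel genes read lower at 50% confluence. Of 28 above the floor in both cultures, 25 (89.3%) were lower, whereas 49.8% of the 4562 genes measured in both were lower, and the median log2 difference was -0.32, against 0.00 for all of these genes. Past 2-fold, 7 were lower (25.0%, against 4.63% of all genes) and 0 were higher (against 4.67%). With 1 array for each state, these differences were not replicated and not tested. In RNA from a whole culture, fewer cells expressing a gene and less RNA per cell cannot be told apart.

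The genes that were over 2-fold lower came from several roles. In each pair the standard culture comes first. DUSP2 read 421 against 113, 3.73-fold lower (log2 difference -1.90), though 113 is barely above the floor; with a floor of 200 the difference was -1.07. IER2 read 2510 against 714, 3.52-fold lower, and JUNB 878 against 295, 2.98-fold lower, with 637 against 111 in its second probe set. ZFP36 was 2.63-fold lower (2544 against 969), IER3 2.60-fold (1418 against 546), NR4A1 2.45-fold (360 against 147) and EGR1 2.01-fold (785 against 391). Both of the last were under 2-fold in some settings: NR4A1 had a log2 difference of -0.85 with a floor of 200, and EGR1 had -0.98 after quantile normalization and -0.92 with a pseudocount of 50. ID1 followed at 1.98-fold (17668 against 8911), with 3997 against 1931 in a second probe set. Other genes of the same roles differed little: DUSP1 read 3095 against 2669, KLF6 2356 against 2279, and MCL1 907 against 827.

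By role, the AP-1 genes were lower in 6 of 6 measured in both cultures (median -0.62), the phosphatase genes in 4 of 4 (-0.37), and the survival and growth control genes IER2, IER3, MCL1, BTG1 and GADD45B in 5 of 5 (-0.40). The remaining transcription factors were lower in 6 of 8 (-0.17). ID1 and ID3 were both lower, and of the NF-kB feedback and mRNA decay genes ZFP36 and TNFAIP3 were lower and NFKBIA higher. The genes that read higher were NFKBIA (278 against 449, a log2 difference of 0.69), KLF4 (194 against 261, 0.43) and SRF (1965 against 2049, 0.06). SRF's second probe set read 596 against 594. For MYC, 2 probe sets were lower (-0.29 and -0.52) and 2 higher (0.39 and 0.23), and for GADD45B a second probe set was higher (0.76), so the direction of these genes rests on the probe set used. FOSB (102 against 100) and DUSP6 (160 against 100) were at the floor at 50% confluence, which made DUSP6 at least 1.60-fold lower. NR4A3 was at the floor in the standard culture and read 131 at 50% confluence by one probe set, while another read 182 against 100.

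The standard culture of male line 1 was itself high for many of these genes, so the 50% confluence culture was also set against the other 9 standard lines. This reference was chosen after seeing the data. Against the mean of those 9 lines, 17 of the same 28 genes were lower, and the median log2 difference was -0.11. Past 2-fold, 1 was lower (IER2, -1.15), and DUSP1 was higher (1.23). The share of all genes past 2-fold against this mean is not given here. FOSB and DUSP6 were at the floor at 50% confluence and so outside the 28. FOSB was at least 3.24-fold lower. DUSP6 was 1.89-fold lower with floored values set to 100, but female lines 1 and 3 were at the floor too, so this is not a minimum. Over the 29 genes tested, 19 were lower, with a median of -0.16, whereas 50.1% of all tested genes were lower, with a median of -0.001. EGR1 at 391 and FOS at 144 lay near the medians of the 10 standard lines (361.5 and 149.5), and DUSP1 at 2669 was exceeded in male line 1 alone. The 50% confluence culture lay inside the range of the 10 standard lines for 25 of 29 tested genes. It lay below all of them for 4 (13.8%, against 7.06% of all tested genes) and above all of them for 0 (against 9.39%). These counts rest on the probe sets used: another MYC probe set read 833, above the highest line (804), and another JUN probe set was at the floor, below the lowest line (109). For JUNB (295, with 296 in male line 5) and IER2 (714, with 725 in female line 1) the margin below the lowest standard line was small. For FOSB, at the floor at 50% confluence and 102 in male line 1, the size of the margin is not known. TNFAIP3 read 122, below the 141 of male line 1.

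**Figure D3:**
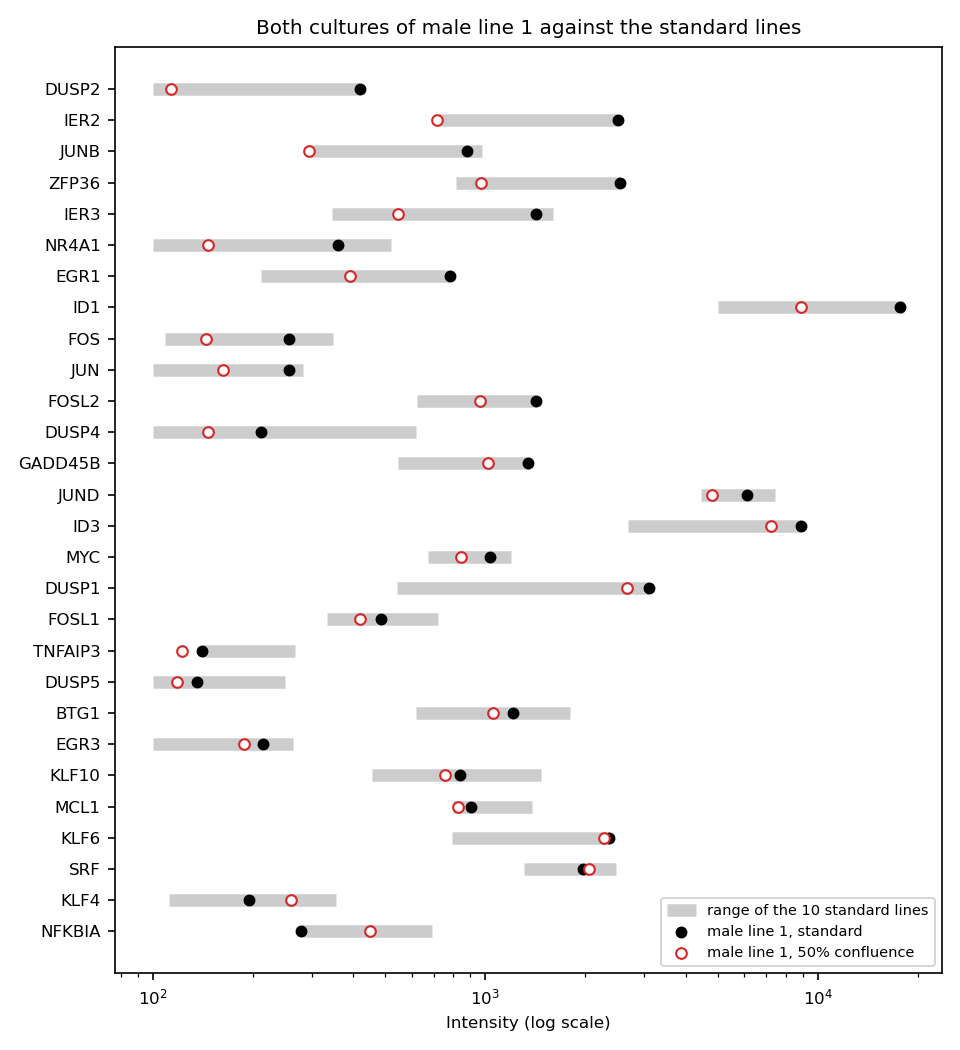
Intensity on a log axis for 28 panel genes in male line 1, each above the floor in both of its cultures, ordered by the log2 difference; filled points are the standard culture, open points the 50% confluence culture, and grey bars the range of the 10 standard lines. Filled points lie to the right of open points for 25 genes, often at the upper end of the bar, and the open points of JUNB, IER2 and TNFAIP3 lie at or beyond its lower end.

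Other genes of the serum response were read from lists of pathway genes. Upstream components showed no common direction between both cultures of male line 1: of 16 receptor and RAS-MAPK genes above the floor in both, 9 were lower and 7 higher (median -0.03), and of 11 factors that act at immediate early promoters, 6 were lower and 5 higher (-0.02). PDGFRB, the PDGF receptor beta gene, read 6679 against 2688 and was the highest of the 10 lines in the standard culture of male line 1. RPS6KA3, an ERK-activated kinase gene, read 239 against 772, but its second probe set was lower (-0.33). In the list of promoter-bound factors, RELA (1732 against 1082) and EP300 (237 against 148) were farthest, each with a log2 difference of -0.68. Their other probe sets differed less, with -0.16, 0.10 and -0.35 for RELA and -0.14 for EP300. Of 11 delayed early and secreted genes above the floor in both, 7 were lower (-0.23), with PLAUR, the urokinase receptor gene, at 2094 against 752 and the matrix gene THBS1 at 6860 against 19814. Outside that count, PTGS2, the cyclooxygenase-2 gene, read 911 against 100, at least 9.11-fold lower, and its 911 was the highest of the 10 lines. The cytokine gene IL6 read 282 against 100, at least 2.82-fold lower, within a range of 100 to 1071 over the 10 lines.

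Actin cytoskeleton targets of SRF went the other way from the panel. Of 13 measured in both cultures, 11 were higher at 50% confluence (median 0.50, 3 of them by over 2-fold), led by CNN1 (362 against 1154) and TPM1 (6510 against 16186), which encode the actin-binding proteins calponin and tropomyosin. One of the other TPM1 probe sets was lower (-0.35), and 9 of the 13 genes were higher with each array centred on its median. Of 6 BMP pathway genes measured in both, 5 were higher (median 0.38), among them the BMP antagonist gene GREM1 (1167 against 2668). SMAD6, an inhibitory SMAD gene, was lower (530 against 335). SMAD4, counted as higher, barely differed (446 against 447). With each array centred on its median, or with quantile normalization, 4 of the 6 were higher. SMAD9, at the floor at 50% confluence and so not counted, read 202 against 100. These lists were described by counts alone, and in the sex and age fits 0 of their genes passed.

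For the 10 standard lines, a comparison of the sexes asked whether the panel differed between female and male animals, with age in the model. By limma, 0 of 29 panel genes passed an adjusted p of 0.05, against 0.0273% of the 7333 probe sets tested. At an unadjusted p under 0.05 there were 2 (6.90%), against 2.33% of probe sets. Estimates were positive in 14 and negative in 15 genes. The mean intensity of DUSP6 was 143 ± 57.5 for females and 263 ± 69.7 for males (SD, n = 5 each), and the groups overlapped because female line 2 (239) exceeded male line 1 (160). Its log2 difference was 0.92 ± 0.32 (SE; limma adjusted p = 0.9999), and 0.37 with a floor of 200. ZFP36 had 1029 ± 187 in females and 1682 ± 609 in males, a difference of 0.65 ± 0.24 (limma adjusted p = 0.9999), and male lines 3 and 5 lay within the female range. KLF6 (0.51 ± 0.26) and KLF4 (0.42 ± 0.31) completed the 4 genes of lowest p. Without female line 1 the differences were 0.31 for KLF6 and 0.26 for KLF4. KLF4 had 0.26 without male line 2 and 0.22 with a floor of 200, and KLF6 had 0.31 with array weights. None of the 4 passed, and the lowest adjusted p of any panel gene over the alternatives was 0.9988.

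The age slope, fitted in the same model, was given as the log2 change over 10 years. By limma 0 of 29 panel genes passed, as did 0% of the 7333 probe sets (0 of 7333). At an unadjusted p under 0.05 there were 4 (13.8%), against 3.42% of probe sets. Slopes were negative in 20 of 29 genes (69.0%), against 50.2% of all tested genes, with a median of -0.10 against 0.00. BTG1 had a slope of -0.44 ± 0.16 (SE): it read 1802 and 1366 in the animals aged 2 years and 617 to 938 in those aged 17 years or more. Between these ages BTG1 read 745 at 9 years but 1238 at 12 years, and without female line 2 its slope was -0.30. NR4A1 had -0.68 ± 0.28 (-0.34 with a floor of 200), and its second tested probe set -0.30. By its first probe set NR4A1 was at the floor in female line 5 and male line 5, aged 20 and 19 years, but read 231 in male line 4, aged 17 years. The second tested probe set had male lines 4 and 5 in the reverse order, at 100 and 161. DUSP4 (0.81 ± 0.31) and NFKBIA (0.39 ± 0.17) had positive slopes. DUSP4 read 428, 376 and 415 in the animals aged 20, 20 and 19 years and 100 to 211 in those aged up to 9 years, but 620 at 12 years and 100 at 17 years, and its slope was 0.53 with a floor of 200. For these 4 genes the limma adjusted p was 0.999, and over the alternatives the lowest adjusted p of any panel gene was 0.572.

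**Figure D4:**
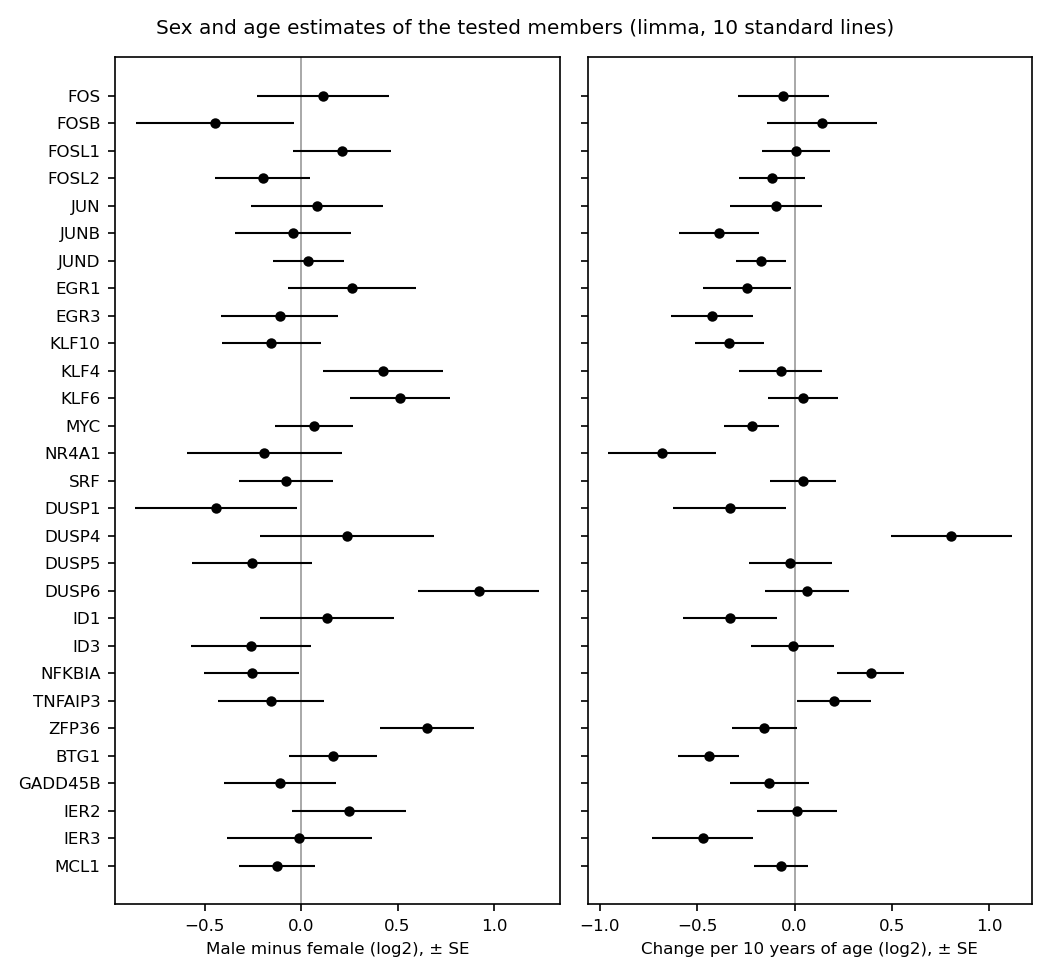
Log2 difference between male and female lines (left) and log2 change per 10 years of age (right) for the 29 panel genes tested, as points with bars of ± 1 SE from the limma fit over the 10 standard lines. DUSP6 (0.92) and ZFP36 (0.65) lie farthest right of 0 for sex, and DUSP4 (0.81) and NR4A1 (-0.68) farthest from 0 for age; 0 genes passed in either fit.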

How the data were processed

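The deposited table holds array intensities, not logged, with a whole number for each probe set. The summary of probes and the scaling used by the authors are not given in the sources at hand. Array means after trimming 2% ran from 408 to 423, so the deposited scaling was kept. Intensities below 100 were set to 100 before taking log2. Control probe sets (67) were not used, and 7333 of 12558 others, above 100 in at least 5 of 11 arrays, were tested. Per array, 52.1% to 60.9% of probe sets were above the floor. The number of arrays limits the precision.

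Symbols came from the platform annotation: 10943 probe sets had 1 symbol and 545 several, which were not named. All 34 panel symbols were in a RefSeq bonobo gene table. For the 10 standard lines, sex and age were fitted together (limma 3.58.1, lmFit and eBayes with trend, R 4.3.3), adjusted by Benjamini-Hochberg over all probe sets, after the fit had been tested on simulated data. P-values of this fit set each estimate against the spread between lines, which mixes biological and technical differences. Correlations used permutation tests in Python 3.11.15.

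Members and lists were chosen with earlier results of these data known. Values in every culture were given for the 4 genes of lowest p per fit, the 8 largest decreases and the increases (at most 4, of which 3 were found) at 50% confluence, and the 8 largest SDs. FOS and IL6 were added after their values were seen. Of each pathway list, the 2 genes of largest difference were named, and the same again after leaving out genes at the floor in either culture. Alternatives were other scalings, floors, filters and variance models, and leaving out each line.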

Additional observations from a re-analysis of the deposited data

Results flagged for a closer look

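Within each sex, the highest and lowest line was compared with the spread of the other lines for the 29 tested panel genes, 58 groups of 5 in all. KLF10 in male line 5, with an intensity of 456, stood apart from the other 4 male lines, whose values were 837 to 1036. The gap to its nearest neighbour was 0.74 of the whole range on the log2 scale. Chance flags about 1 group in 20, so 1 of 58 is fewer than that rate.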

How the results depend on the processing

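Panel genes passed in 0 of the sex fits and 0 of the age fits under every alternative run. Over all probe sets, 2 passed for sex, and 1 with a floor of 200, 1 with a pseudocount of 50, 1 with all probe sets tested and 0 with probe sets above the floor in all 11 arrays, and 3 each with no intensity trend, array weights and no age covariate; without single lines the count was 1 to 2. For age, 1 probe set passed with all probe sets tested, against 0. The median difference at 50% confluence ran from -0.42 to -0.11 and kept its sign. The count of genes over 2-fold lower fell from 7 to 1 against the mean of the other 9 standard lines, an alternative added after seeing the data. Against that mean DUSP1 was over 2-fold higher (1.23). Without the 2 farthest lines, r turned to 0.34 for FOS with FOSB, -0.17 for FOS with JUNB, 0.38 for ID1 with ID3 and -0.11 for NFKBIA with TNFAIP3. Negative age slopes numbered 18 to 22 when single lines were left out. The cause of these changes was not tested. Genes near the floor have only bounds. No paired analysis was possible because the labels number no replicates, and the 1 line with 2 cultures has a single array in each state.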
